A study of Mus musculus with 10 samples.

Results

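CBL0137 in wild-type mouse embryonic fibroblasts (MEF) was examined over every gene identifier counted in the deposited libraries. The libraries were chosen by their labels alone, as those of embryo fibroblasts with wild type genotype, and made up 4 of the 10 libraries of the series. 2 were untreated and 2 came from cells given 1 µM CBL0137 for 24 hr, all from C57BL/6J mice and grown in DMEM with serum. MEF were primary cells taken from single embryos and kept for few passages, and the sources do not say which embryo gave which library. The methods call the 2 libraries of each condition biological replicates. For comparison, MEF of the p53-/- genotype (Trp53tm1Tyj, the germline deletion of the gene for p53) were available as 1 untreated library and 1 library treated at the same dose and time. The lung libraries of the series were not used for the results.

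CBL0137 is a curaxin, a small molecule that inserts into DNA without breaking it, loosens the contacts of DNA with histones and traps the histone chaperone FACT, made of Ssrp1 and Supt16, on chromatin. It is known to activate p53 and interferon-responsive genes and to inhibit NF-kappaB. In dividing fibroblasts p53 stops the cell cycle, mainly through Cdkn1a and the repressor complexes that silence genes of DNA replication and mitosis. Many promoters of mitotic genes hold a CCAAT box or the CHR element through which these complexes act.

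Few reads fell on gene identifiers. The untreated libraries held 137150 and 191972 such counts and those given CBL0137 held 67587 and 274300, 0.803% to 1.16% of the 8158334 to 23723730 reads of each file. Actb, an abundant mRNA of any fibroblast, held 10 and 27 counts in untreated cells. The library kit kept the strand of each RNA, while the strand setting of the counting is not given in the sources used here. The counts appear to be of the strand opposite to each gene, so each identifier is named here with its partner, a gene on the other strand whose exons share at least 1 base with it in GENCODE M21 (GRCm38). A pair is written as identifier/partner, for example Exosc9/Ccna2, and the counts are those of the identifier. Of the 38293 identifiers 7202 (18.8%) had a partner, but of the 1757 with enough counts for a test 1232 (70.1%) did, and these 1757 held 88.42% of all counts. Which strand gave a single count cannot be told from the files.

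Cell identity could be checked only in part. Of 20 fibroblast markers 17 had counts under their own identifiers, with a summed level of 1076 and 1819 CPM (counts scaled to the TMM-adjusted library total) in untreated and 713 and 588 CPM in treated cells. Dcn, Lum and Fap were at 0. Over the 4 identifiers opposite fibroblast markers the sums were 6992, 5898, 5345 and 6669 CPM. All 8 epithelial and all 6 hepatic or erythroid markers were at 0 in the 4 libraries, as were 6 of 7 muscle, 5 of 7 endothelial, 4 of 8 neural, 4 of 8 leukocyte and 3 of 5 pluripotent or germ cell markers. The highest of these, Csf1r, with 33, 74, 28 and 120 counts, shares exon bases with Hmgxb3 on the other strand, and next came the endothelial Vwf with 7, 7, 2 and 53. Their part in the results below was not tested.

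After CBL0137, 149 of the 1757 identifiers tested differed from untreated cells at an adjusted p below 0.05 (edgeR quasi-likelihood test, Benjamini-Hochberg adjustment), or 8.48% of those tested. 74 were higher (4.21%) and 75 lower (4.27%), and 63 and 66 of them differed by over 2-fold. The median log2 fold change was 1.98 among the higher and −2.01 among the lower identifiers, against 0.01 over all tested. In bulk RNA, fewer cells of a type and less RNA per cell cannot be told apart. The split depended on scaling: without scaling factors 98 were higher and 64 lower, and with all reads of the file as library size 125 and 63. These scalings moved the median log2 fold change of all identifiers by 0.107 and 0.206.

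The calls rested on having both untreated libraries. Without untreated library 1 only Gm20628, opposite Hist2h3b, and ENSMUSG00000045999 remained called, with 324 identifiers at an unadjusted p below 0.05, and without untreated library 2 the count was 0, with 250. DESeq2 gave 21 higher and 29 lower identifiers, and 48 of these 50 were among the 149. Without CBL0137 library 1, 117 of 2333 identifiers were higher (5.02%) and 5.87% lower, and without CBL0137 library 2, 45 of 1909 were higher (2.36%) and 66 lower (3.46%). Of the 54 identifiers picked by the rule for naming, none of those with a value changed direction in these settings. As the treated and untreated libraries of each of these identifiers lay apart in CPM, leaving out a library could hardly reverse any of them. DESeq2 gave a value for 50 of them, the fit without untreated library 2 for 48 and that without CBL0137 library 2 for 47. All 149 had both treated libraries beyond both untreated ones in CPM, a pattern that 1008 of the 1757 identifiers (57.4%) showed.

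**Figure D1:**
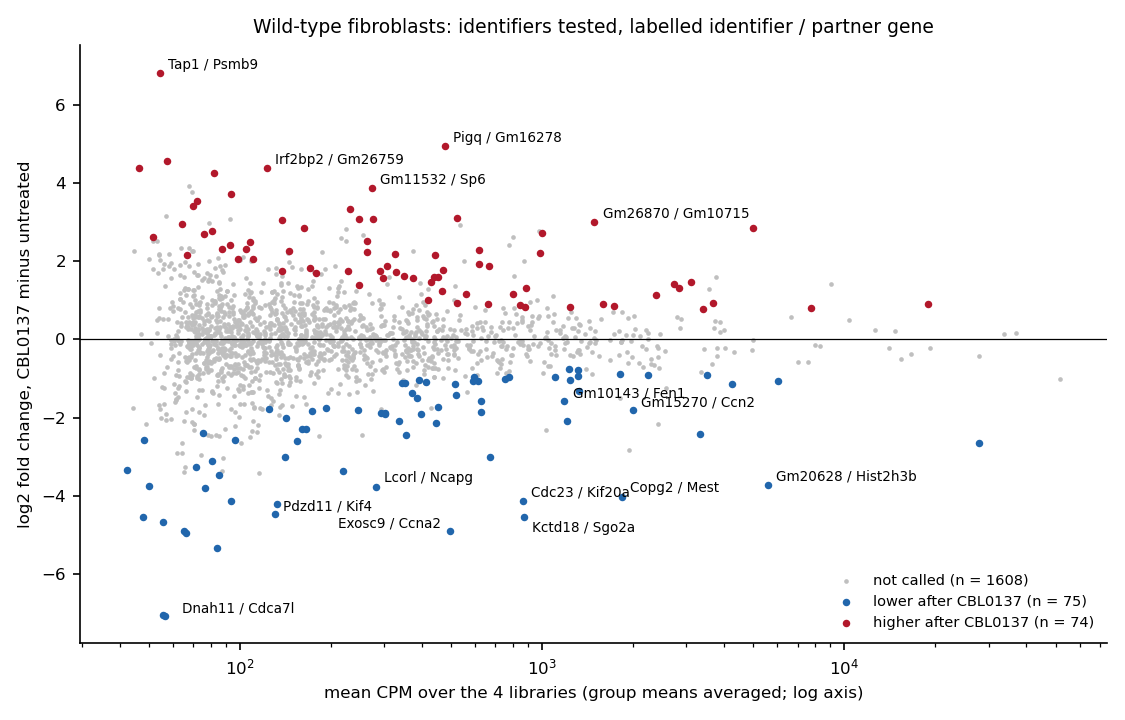
Log2 fold change (CBL0137 minus untreated, 2 libraries each) of the 1757 identifiers tested against the average of the 2 group means in CPM, on a log axis. Blue points are the 75 lower and red points the 74 higher identifiers at an adjusted p below 0.05, and labels give identifier / partner, with Exosc9, Kctd18 and Cdc23 at the lower edge of the cloud.

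Several deep falls lay opposite genes of mitosis. Kctd18 (chr1:57955101-58018956, reverse strand) shares 2455 exon bases with Sgo2a, whose product shugoshin 2 protects cohesin at centromeres and which is not on the G2 and M phase list used below. Its counts were 186 and 292 in untreated and 3 and 20 in treated cells, or 1679 ± 163 against 64.3 ± 22.2 CPM (SD, n = 2), a log2 fold change of −4.55 (SE 0.26, adjusted p = 0.00196). Both treated libraries lay far below both untreated ones.

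Exosc9 (chr3:36552606-36565727, forward strand) shares 510 bases with the 3′ end of Ccna2, the gene for cyclin A2, which drives Cdk1 and Cdk2 through S and G2 phase. Exosc9/Ccna2 held 114 and 158 counts in untreated and 1 and 9 in treated cells, 964 ± 9.01 against 26.1 ± 14.0 CPM (SD, n = 2), and fell by 4.91 on the log2 scale (SE 0.30, adjusted p = 0.00196). In untreated cells its libraries were almost equal and both treated values were far below them. The reverse reading of the locus went another way: the Ccna2 identifier held 54, 84, 45 and 225 counts, with a log2 fold change of 0.76 (adjusted p = 0.0695).

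Cdc23, which shares 1271 bases with Kif20a, the gene for a kinesin of cytokinesis, had 182 and 289 counts in untreated and 2 and 30 in treated cells (log2 fold change −4.14, SE 0.41, adjusted p = 0.00761). Lcorl, opposite the condensin subunit gene Ncapg with 944 shared bases, went from 58 and 92 to 2 and 10 counts (−3.76, SE 0.31, adjusted p = 0.00547). Pdzd11, opposite the chromokinesin gene Kif4, had 28 and 41 against 2 and 1 counts, a ratio of 0.0393 (95% exact counting interval 0.00791 to 0.12, adjusted p = 0.0226). All of these pairs kept their untreated libraries close together and apart from the treated ones. The groups lay apart for all 149 calls and for 57.4% of those tested. The Kif20a identifier itself, with 74 and 100 counts in untreated cells, had a log2 fold change of −0.23 (adjusted p = 0.453), and that of Ncapg, with 15, 20, 0 and 11, one of −1.87 (adjusted p = 0.131).

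Paqr4, opposite Pkmyt1, the gene for a kinase that holds Cdk1 inactive before mitosis, had 14 and 17 counts in untreated cells and 0 in both treated libraries. Taking 3 counts over the treated group as the floor, it was at least 11.4-fold lower (adjusted p = 0.0252). Dnah11, opposite Cdca7l, a paralogue of the chromatin cofactor gene Cdca7, had 13 and 19 against 0 and 0 counts, at least 11.8-fold lower (adjusted p = 0.0243). Primpol, opposite the centromere protein gene Cenpu, fell from 18 and 23 to 1 and 4 counts (−3.12, adjusted p = 0.0226), and Gm26765, opposite Tmpo of the nuclear lamina, from 45 and 65 to 5 and 31 (−1.82, adjusted p = 0.0272). Primpol, Gm26765, Col3a1, Ctsa, LTO1, Gm10800, ENSMUSG00000045999 and the pairs called on both strands were outside the rule for naming and were chosen after their values were seen.

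The list of G2 and M phase genes was chosen with earlier results of these data known. Of 18 identifiers in the files opposite a listed gene 6 were tested. Exosc9, Lcorl, Pdzd11 and Cdc23 had enough counts for a test only through the untreated libraries, which favours falls. The median log2 fold change of the 6 was −3.95, against 0.01 over all identifiers tested. Of the 6 identifiers 5 fell and none rose, against 4.27% called lower over all tested. The exception, Fam166a opposite the tubulin gene Tubb4b, had 28, 35, 9 and 71 counts (0.04, adjusted p = 0.97). Under their own identifiers 3 listed genes were tested and none was called. Without untreated library 1 none of the G2 and M pairs passed the threshold, and Exosc9 and Kctd18 both had an adjusted p of 0.0561. Without untreated library 2 theirs were 0.114 and 0.106. DESeq2 called Exosc9, Cdc23, Lcorl and Pdzd11 but not Gm26765 (adjusted p = 0.158), and outside the list it called Kctd18.

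**Figure D2:**
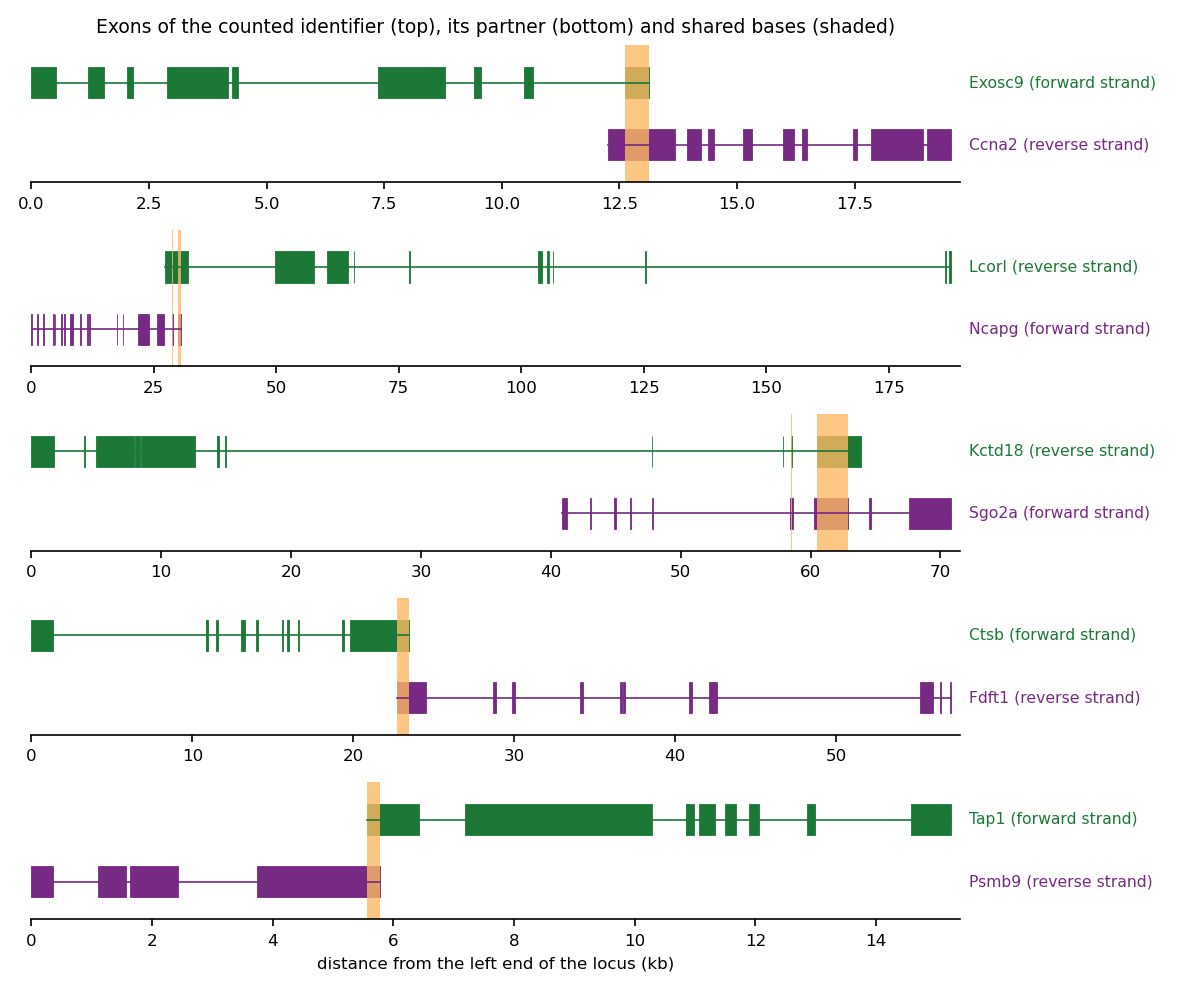
Merged exons of 5 pairs, drawn to scale in kb from the left end of each locus, with the counted identifier in green, its partner in purple and shared exon bases shaded. In the pairs with Ccna2, Ncapg and Fdft1 the 3′ ends overlap, Kctd18 overlaps Sgo2a over 2455 bases, and Tap1 and Psmb9 overlap at their 5′ ends over 212 bases.

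Promoters are shown for partners of 4 identifiers that fell, from mitosis, repair, chromatin assembly and heterochromatin, and of 1 that rose, because motifs known from cell cycle promoters were counted over all partners. These 5 were printed because they hold a motif within 120 bases of the start. The same window of Sgo2a (from 2 annotated starts) and Suv39h2 held neither motif, as the last stretches show for 1 start each, and that of Cenpu, not shown, held a CCAAT box. The stretches were taken from RefSeq (GRCm38.p6) and end just before the first annotated base, 5′ to 3′ on the strand of the gene. Capitals mark a CHR (TTTGAA or TTCGAA, on either strand) or a CCAAT box (CCAAT or ATTGG). Ncapg lies at chr5:45669799-45669918 on the forward strand, Fanca at chr8:123318577-123318696 on the reverse, Chaf1a at chr17:56040296-56040415 on the forward, and Suv39h1 at chrX:8074761-8074880 on the reverse strand. Hspa1a, opposite an identifier that rose, lies at chr17:34972157-34972276 on the reverse strand. The stretch of Sgo2a is chr1:57985220-57985339 on the forward and that of Suv39h2 chr2:3475032-3475151 on the reverse strand.
Ncapg: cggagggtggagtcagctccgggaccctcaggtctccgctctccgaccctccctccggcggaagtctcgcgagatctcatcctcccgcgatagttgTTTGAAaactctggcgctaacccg
Fanca: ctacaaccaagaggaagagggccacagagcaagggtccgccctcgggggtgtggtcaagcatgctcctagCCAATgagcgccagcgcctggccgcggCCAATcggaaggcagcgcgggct
Chaf1a: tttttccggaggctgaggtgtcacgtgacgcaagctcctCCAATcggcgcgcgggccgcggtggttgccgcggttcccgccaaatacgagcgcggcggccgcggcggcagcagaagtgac
Suv39h1: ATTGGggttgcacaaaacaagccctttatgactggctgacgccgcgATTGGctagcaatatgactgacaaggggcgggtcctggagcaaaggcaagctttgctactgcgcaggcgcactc
Hspa1a: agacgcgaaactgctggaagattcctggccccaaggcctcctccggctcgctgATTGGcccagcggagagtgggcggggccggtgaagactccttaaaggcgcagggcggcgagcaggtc
Sgo2a: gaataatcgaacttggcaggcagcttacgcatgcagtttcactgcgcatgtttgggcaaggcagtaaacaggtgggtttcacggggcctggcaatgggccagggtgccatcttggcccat
Suv39h2: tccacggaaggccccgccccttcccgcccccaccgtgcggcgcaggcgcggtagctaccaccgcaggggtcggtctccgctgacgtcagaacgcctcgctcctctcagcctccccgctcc

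Over the 250 bases before a start, a CCAAT box on either strand was found for 30 of the 44 partner genes of lower identifiers that had a promoter in the table (68.2%), for 14 of 43 partners of higher identifiers (32.6%), for 393 of 1013 partners of tested identifiers (38.8%) and for 10133 of all 27025 genes (37.5%). A CHR was found for 11 of the 44 (25%), 5 of the 43 (11.6%), 143 of the 1013 (14.1%) and 5284 of the 27025 (19.6%). These shares are descriptions of letters in a fixed window. 35 of the 79 partner genes of lower identifiers and 25 of the 68 of higher ones had no entry.

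2 identifiers opposite genes of DNA replication and chromatin assembly fell. Gm10143, opposite Fen1, the flap endonuclease of Okazaki fragments, had 193 and 314 counts in untreated and 37 and 147 in treated cells, 1776 ± 217 against 594 ± 7.97 CPM (SD, n = 2), and fell by 1.58 on the log2 scale (SE 0.17, adjusted p = 0.0091). Ubxn6, opposite Chaf1a, the large subunit of the chaperone that places histones behind the replication fork, had 54 and 104 against 7 and 34 counts (−2.09, SE 0.29, adjusted p = 0.0191). Each treated library was below each untreated one in CPM, and the groups lay apart for 57.4% of all tested.

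Of 21 identifiers in the files opposite a gene of the S phase list 4 were tested, with a median of −1.83 against 0.01 over all tested. Of the 4 identifiers 2 fell and none rose, against 4.27% called lower over all tested. The others were Gse1/Gins2 (12, 19, 1 and 7 counts, −2.08, adjusted p = 0.056) and Eif4a2/Rfc4 (13, 16, 3 and 21, −0.47, adjusted p = 0.512). Gse1 and Eif4a2 had enough counts for a test only through the untreated libraries, which favours falls and a low median. Read under their own identifiers, 9 S phase genes were tested, with a median of 0.31. The one called rose: Gins2, which encodes a subunit of the replicative helicase and overlaps Gse1 over 2758 bases, had 58 and 85 against 84 and 295 counts (1.32, SE 0.17, adjusted p = 0.0167). The 2 readings of this locus thus had opposite signs. Gins2 was not called with DESeq2 (adjusted p = 0.179) or with 10 libraries in 1 fit (0.0518). None of the 3 calls held without either untreated library, where adjusted p values lay between 0.148 and 0.26.

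Replication-dependent histone genes, whose mRNAs are made in S phase and carry no poly(A) tail, gave the smallest adjusted p of the comparison. Gm20628 shares exons with Hist2h3b and Hist2h2bb and held 1213 and 1723 counts in untreated and 46 and 204 in treated cells, 10390 ± 278 against 781 ± 50.2 CPM (SD, n = 2). It fell by 3.73 on the log2 scale (SE 0.16, adjusted p = 0.00103), and was called without untreated library 1 (adjusted p = 0.0341) but not without untreated library 2 (0.0501). Its untreated and treated libraries were each nearly equal.

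Of 62 histone genes in the files 4 were tested under their own identifiers, none with a partner, and all 4 fell (median −3.60). Over all tested 4.27% were called lower, with a median of 0.01. The 4 had enough counts for a test only through the untreated libraries, which favours falls. Hist1h2bl, a histone H2B gene, had 27 and 45 against 1 and 3 counts (−4.20, SE 0.47, adjusted p = 0.0091). The linker histone genes Hist1h1e (33 and 38 against 1 and 9, −2.997, adjusted p = 0.0198) and Hist1h1c (29 and 48 against 2 and 12, −2.60, adjusted p = 0.0221) followed. Hist2h3c2 went from 27 and 17 to 0 and 1, a ratio of 0.0205 (95% exact counting interval 0.000509 to 0.121, adjusted p = 0.0272). As copies of these genes are near identical, counts could have been split or lost between them. Of the 4 identifiers opposite histone genes, Gm20628 was the only one called. 4930558J22Rik/Hist1h4b (75, 120, 5 and 67 counts) was at −1.76 (adjusted p = 0.0635), Gm20632/Hist2h2aa2 (255, 390, 104 and 588 counts) was at −0.16 (adjusted p = 0.663), and Gm20633, opposite Gm20634 and Hist2h2aa1, had 51, 66, 10 and 559 counts, with its treated libraries on either side of the untreated ones (adjusted p = 0.322). H1f0, the replacement linker histone gene, opposite Gm49544, had 10 and 20 against 1 and 0 counts, a ratio of 0.0301 (interval 0.000739 to 0.181, adjusted p = 0.0485). Apart from Gm20628 no histone call held without either untreated library.

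**Figure D3:**
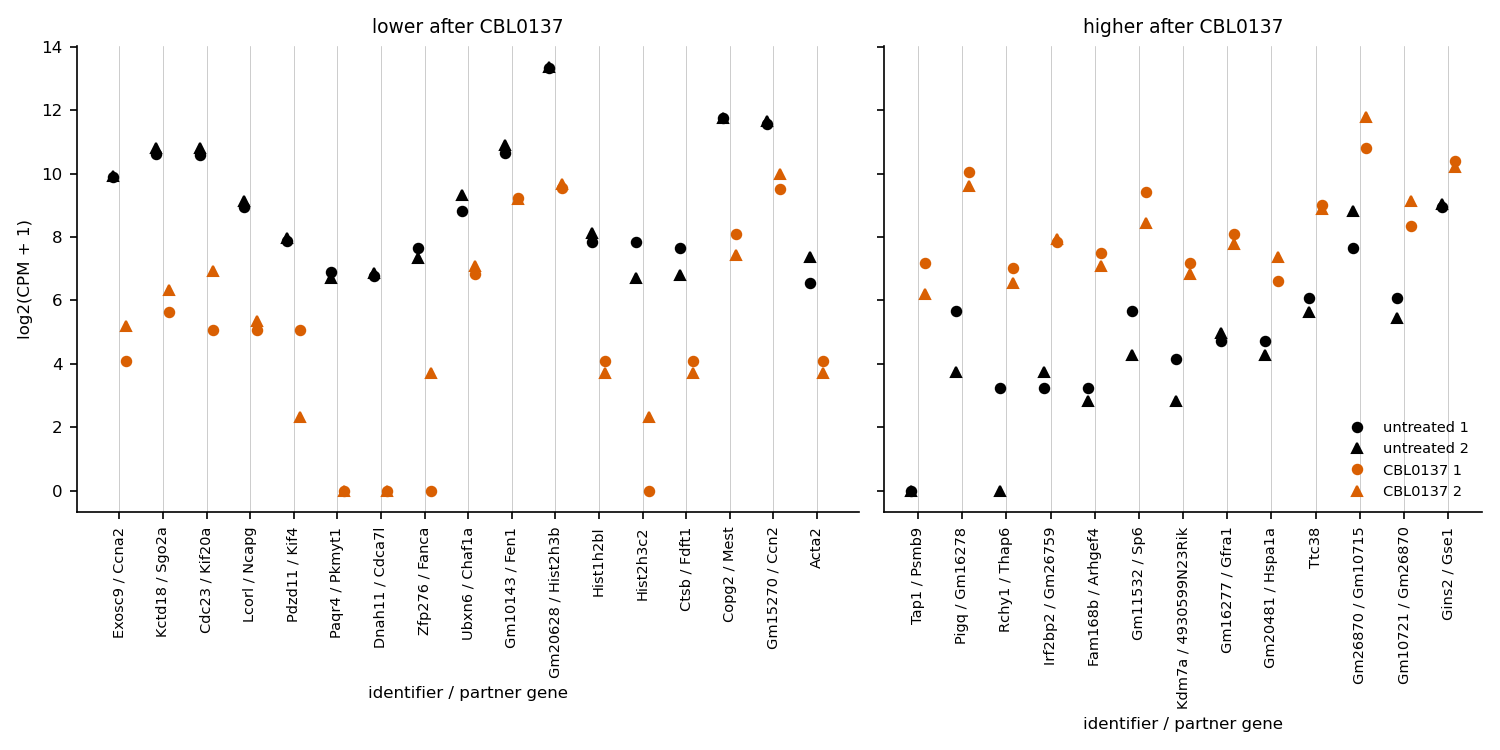
Level of 30 named identifiers in each of the 4 wild-type libraries as log2(CPM + 1), where 0 stands for no counts, with black for untreated, orange for CBL0137, circles for library 1 and triangles for library 2. In every column the orange points lie on the same side of the black ones. All 149 called identifiers and 57.4% of those tested showed this pattern. Paqr4 and Dnah11 have no counts after treatment while Tap1 has none before it.

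Among DNA repair genes, 9 tested identifiers lay opposite a listed gene and 1 fell, against 4.27% called lower over all tested, with a median of −0.15. This was Zfp276, opposite Fanca of the Fanconi anaemia complex, which repairs DNA crosslinks, with 24 and 26 against 0 and 3 counts, a ratio of 0.0542 (95% exact counting interval 0.0108 to 0.168, adjusted p = 0.0221). Zfp276 also overlaps Vps9d1. Polg, opposite Fanci of the same pathway, had 9 and 28 against 0 and 4 counts (−3.27, adjusted p = 0.0628). Zfp276 and Polg had enough counts for a test only through the untreated libraries, which favours falls. Pip4p1/Apex1 had 278, 445, 105 and 406 counts (−0.61, adjusted p = 0.0709). The identifiers opposite Lig3, Rev1, Trp53bp1, Atr and Ercc2 lay between −0.36 and 0.50. None of the 11 repair genes tested under their own identifiers was called (median −0.02). With all reads as library size the median of the partner list turned to 0.14.

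Dclre1c/Suv39h2 and Gm14820/Suv39h1 lay opposite the genes for both H3K9 methyltransferases of constitutive heterochromatin. Dclre1c had 15 and 20 against 2 and 5 counts (−2.40, SE 0.48, adjusted p = 0.0419) and Gm14820 had 23 and 31 against 4 and 13 (−1.77, SE 0.37, adjusted p = 0.0479). Dclre1c and Gm14820 had enough counts for a test only through the untreated libraries, which favours falls. With all reads as library size Gm14820 was no longer called (adjusted p = 0.0838), DESeq2 called neither (0.442 and 0.454), and both were lost without either untreated library. The other 4 of the 6 heterochromatin genes opposite tested identifiers were Hdac4, Suz12, Mphosph8 and Eed, at −0.47, −0.30, −0.43 and 1.23, none called. Over all tested 4.27% were called lower. Nelfa, opposite Nsd2, an H3K36 methyltransferase gene, had 56 and 80 against 7 and 34 counts (−1.90, SE 0.25, adjusted p = 0.0175). Nsd2/Nelfa, the reverse reading, was at −0.97 (10, 13, 5 and 7 counts, adjusted p = 0.338).

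Ctsb shares 774 bases with Fdft1, the gene for squalene synthase, which makes the first committed step of cholesterol synthesis. It had 24 and 18 counts in untreated and 1 and 3 in treated cells, 156 ± 64.4 against 14.1 ± 2.97 CPM (SD, n = 2), a log2 fold change of −3.48 (SE 0.63, adjusted p = 0.0325). The Fdft1 identifier, opposite Ctsb, held 24, 54, 33 and 94 counts (0.71, adjusted p = 0.227). Sqle, a further gene of the pathway without a partner, was at 0.51 (adjusted p = 0.401). DESeq2 did not call Ctsb (adjusted p = 0.113), nor was it called without either untreated library.

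Copg2, opposite the imprinted gene Mest, held 408 and 562 counts in untreated and 17 and 43 in treated cells, 3441 ± 17.2 against 224 ± 73.1 CPM (SD, n = 2), and fell by 4.02 on the log2 scale (SE 0.26, adjusted p = 0.00196). Tex9, opposite Mns1, had 24 and 15 against 0 and 3 counts, a ratio of 0.0695 (95% exact counting interval 0.0137 to 0.219, adjusted p = 0.0485). Ptpre, opposite 5830432E09Rik, had 12 and 14 against 0 and 1, and Gm9008, opposite Gm44166, had 13 and 22 against 1 and 0 (adjusted p = 0.0258 and 0.039). The untreated and treated libraries of these identifiers did not overlap, which the rule for naming them required. Without untreated library 1 the adjusted p of Copg2 was 0.0561 and without library 2 it was 0.106.

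Of the genes of the matrix and the contractile cytoskeleton 19 were tested under their own identifiers. Of these 4 fell, none rose and 15 were not called, against 4.27% called lower over all tested. Their median was −1.68, against 0.01 over all tested. Acta2, Col3a1 and Thbs1 had enough counts for a test only through the untreated libraries, which favours falls. The same held for Col1a1, Col1a2, Col4a1, Col5a1, Col6a1, Col6a2, Col6a3, Col12a1, Tpm1 and Tpm2, which favours a low median. Acta2, the smooth muscle actin of activated fibroblasts, had 11 and 27 against 1 and 3 counts (−3.27, SE 0.62, adjusted p = 0.0384). Col3a1, a fibrillar collagen gene, had 14 and 36 against 1 and 8 (−2.58, adjusted p = 0.0491). Thbs1, the gene for thrombospondin 1, had 26 and 53 against 2 and 16 (−2.30, adjusted p = 0.0394), and the integrin gene Itgb1 had 60 and 89 against 16 and 63 (−1.04, adjusted p = 0.0422). All but Thbs1, which overlaps Gm29233, had no partner. The libraries of each kind did not overlap, as for 57.4% of those tested. The counts were low for mRNAs this abundant in fibroblasts, and the source of such counts was not tested.

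The other 15 matrix genes tested under their own identifiers were not called, with log2 fold changes from −2.90 for Col12a1 (10, 20, 2 and 2 counts, adjusted p = 0.0596) to −0.12 for Fbn1. Col1a1 had 19, 43, 4 and 13 counts (−1.94, adjusted p = 0.0551) and Col1a2 had 11, 32, 4 and 8 (−1.86, adjusted p = 0.11). Actb had 10 and 27 against 1 and 0, a ratio of 0.0244 (95% exact counting interval 0.000602 to 0.145, adjusted p = 0.0485). Opposite matrix genes 10 identifiers were tested and 1 fell: Gm15270/Ccn2, at the locus of the matricellular growth factor Ccn2, with 357 and 526 against 45 and 254 counts (−1.82, SE 0.21, adjusted p = 0.00934). Apol7d/Fn1 and Syn3/Timp3, with more counts, were at 0.23 and −0.36 and were not called. None of the matrix calls held without either untreated library, DESeq2 called Gm15270 but not Acta2, Thbs1, Itgb1 or Actb, and Itgb1 was lost with all reads as library size (adjusted p = 0.307).

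Single identifiers fell opposite genes of the stress response and splicing lists, and 1 ribosomal protein gene fell under its own identifier. 1810014B01Rik, opposite Hsp90b1, the gene for the chaperone GRP94, had 947 and 1372 against 245 and 963 counts, 8194 ± 333 against 3911 ± 82.1 CPM (SD, n = 2), a log2 fold change of −1.07 (SE 0.14, adjusted p = 0.0156). Mettl23, opposite the splicing factor gene Srsf2 and Jmjd6, had 331 and 500 against 101 and 369 counts (−0.92, SE 0.16, adjusted p = 0.0272), while Mfsd11, which also overlaps Srsf2, was at −0.37 (adjusted p = 0.385). With all reads as library size neither was called (adjusted p = 0.253 and 0.331). Rpl26, a ribosomal protein gene without a partner, had 25 and 41 against 3 and 15 counts (−2.01, SE 0.36, adjusted p = 0.0332). Its counts were enough for a test only through the untreated libraries, which favours falls. It was 1 of 6 ribosomal protein genes tested under their own identifiers, and none of the 6 opposite tested identifiers was called. All 3 calls were lost without either untreated library.

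Among the gene lists the rises were those of Tap1, Gm20481 and Gins2. Tap1, the gene for a subunit of the peptide transporter of antigen presentation, is paired head to head with Psmb9, a subunit of the immunoproteasome. The Tap1 identifier (chr17:34187553-34197225, forward strand) had 0 counts in both untreated and 9 and 18 in treated libraries, which is at least 8.14-fold higher with 3 counts over the untreated group as the floor (adjusted p = 0.0485). It was called neither without untreated library 1 (adjusted p = 0.233) nor without untreated library 2 (0.351).

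Of 19 identifiers in the files opposite a gene of the interferon response list 3 were tested, with a median of 1.78 against 0.01 over all tested. Tap1/Psmb9 was the only one called, against 4.21% called higher over all tested. Gm15821, opposite Tap2, had 5, 6, 8 and 35 counts (1.78, adjusted p = 0.0551), and Gm11626, opposite Ifi35, had 6, 13, 9 and 63 (1.66, adjusted p = 0.0755). Of 4 listed genes tested under their own identifiers only Tap1 was called, which is the same identifier as in Tap1/Psmb9. Ifit1, without a partner, had 4, 2, 7 and 28 counts (2.34, adjusted p = 0.0609), and Irf5 and Irgm1 were at −0.27 and −0.37. Tap1, Gm15821, Gm11626 and Ifit1 had enough counts for a test only through the treated libraries, which favours rises. Most of the 76 listed genes had too few counts for a test, since 74 were in the files and only 4 were tested under their own identifiers.

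The p53 target list gave no call. Zmat3 (5, 4, 5 and 36 counts) was at 1.92 and Bcl2l1 (2, 3, 6 and 17) at 2.06, both with an adjusted p of 0.0779 and no partner. Ncoa3, opposite Sulf2, was at 2.0 (4, 7, 15 and 29 counts, adjusted p = 0.082), Ddb2 at 0.07 and E230016M11Rik, opposite Gadd45a, at −0.19. Zmat3, Bcl2l1 and Ncoa3 had enough counts for a test only through the treated libraries, which favours rises. The identifiers of Cdkn1a (1, 5, 1 and 1 counts), Mdm2 (0, 0, 0 and 4) and Trp53 (0 in all 4) had too few counts for a test. Trp53 also had 0 counts in untreated and 5 in treated p53-/- MEF, so these counts do not check the genotype labels.

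FACT subunit loci could be read from the other strand only for Supt16. Rpgrip1, opposite Supt16, had 228 and 333 counts in untreated and 80 and 366 in treated cells, 1981 ± 91.9 against 1380 ± 119 CPM (SD, n = 2), a log2 fold change of −0.52 (SE 0.16, adjusted p = 0.0992). Its treated libraries were below the untreated ones but the difference was not called. Supt16 itself had 3, 8, 2 and 4 counts, Ssrp1 had 5, 1, 0 and 2, and P2rx3, opposite Ssrp1, had 0, 0, 0 and 1.

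Of the heat shock list the identifier opposite Hspa1a, which encodes the stress-inducible Hsp70, was the only one of its kind tested, and it rose. Over all tested 4.21% were called higher. This identifier had enough counts for a test only through the treated libraries, which favours rises. Gm20481 had 3 and 3 against 6 and 41 counts, 21.8 ± 4.79 against 131 ± 47.3 CPM (SD, n = 2), with a log2 fold change of 2.69 (SE 0.53, adjusted p = 0.0414). DESeq2 (adjusted p = 0.42) and both fits without an untreated library (0.268 and 0.367) did not call it. Hsp90ab1, Dnaja1 and Hspa4, tested under their own identifiers, were at −1.16, −0.52 and −0.16 and were not called.

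Larger rises opposite protein-coding or predicted genes included Pigq and Ctsa. Pigq, an enzyme of GPI anchor synthesis, overlaps Gm16278 and had 6 and 2 counts in untreated and 66 and 195 in treated cells, 31.4 ± 26.96 against 925 ± 204 CPM (SD, n = 2), a log2 fold change of 4.93 (SE 0.49, adjusted p = 0.00761). Ctsa, opposite Neurl2 and the phospholipid transfer protein gene Pltp, had 35 and 38 against 104 and 445 counts (2.72, adjusted p = 0.00293). Gm11532, opposite Sp6, a zinc finger transcription factor gene, had 6 and 3 against 42 and 86 (3.88, SE 0.59, adjusted p = 0.0226), and Gm16277, opposite the GDNF receptor gene Gfra1, had 3 and 5 against 17 and 55 (3.05, SE 0.42, adjusted p = 0.019). In all 4 the treated libraries stood clear of the untreated ones, as the groups did for all 149 calls and 57.4% of those tested. LTO1, which shares 1100 bases with Ccnd1, the gene for cyclin D1, had 674 and 914 against 587 and 2555 counts, 5640 ± 34.2 against 9865 ± 504 CPM (SD, n = 2), and rose by 0.81 (adjusted p = 0.0272). The Ccnd1 identifier had 8, 9, 13 and 36 counts (1.45, adjusted p = 0.0867).

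Several rises started from 1 to 3 counts in untreated cells and have wide intervals. Irf2bp2, opposite Gm26759, had 1 and 2 against 14 and 61 counts, a ratio of 22.6 (95% exact counting interval 7.44 to 112, adjusted p = 0.0091). Fam168b, opposite Arhgef4, had 1 and 1 against 11 and 34 (ratio 20.3, 5.31 to 173), and Kdm7a, a histone demethylase gene opposite 4930599N23Rik, had 2 and 1 against 9 and 28 (ratio 11.1, 3.53 to 56.5). The ubiquitin ligase gene Rchy1, opposite Thap6, had 1 and 0 against 8 and 23 (ratio 28.0, 4.67 to 1142). Cops3, opposite Gm16062 and Nt5m, had 1 and 0 against 5 and 24 (ratio 26.2, 4.35 to 1071), and Gm16105, opposite Celf5, had 0 and 3 against 9 and 31 (ratio 12.1, 3.84 to 60.9). The intervals cover counting error only. Without either untreated library none was called.

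Identifiers that rose without a partner on the other strand included Ttc38, with 8 and 8 against 32 and 117 counts (3.08, SE 0.31, adjusted p = 0.00761), and Slc35e4, with 2 and 1 against 15 and 27 (ratio 12.7, 95% exact counting interval 4.04 to 63.8, adjusted p = 0.0479). ENSMUSG00000097432, which is not in GENCODE M21, had 14 and 16 against 71 and 183 counts (3.09, SE 0.31, adjusted p = 0.00761). Gm26870 and Gm10717 to Gm10721 are predicted genes with near-identical copies, so their counts can be shared. Gm26870 had 24 and 74 against 111 and 875 counts, 328 ± 179 against 2649 ± 1204 CPM (SD, n = 2), a log2 fold change of 3.004 (SE 0.48, adjusted p = 0.0243). Gm10718, Gm10719 and Gm10721 all lay opposite it and rose by 2.51, 2.86 and 3.07, and Gm10717, without a partner, rose by 3.34 (adjusted p = 0.0139 to 0.0226). The spread between the treated libraries of Gm26870 was wide, yet the lower of them was above both untreated ones. Gm10800, a further predicted gene without a partner, had 130 and 219 against 502 and 2356 counts (2.85, SE 0.18, adjusted p = 0.00196). ENSMUSG00000045999, also absent from GENCODE M21, had 6870 and 6278 against 528 and 1723 counts, a log2 fold change of −2.64 (SE 0.25, adjusted p = 0.00761).

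**Figure D4:**
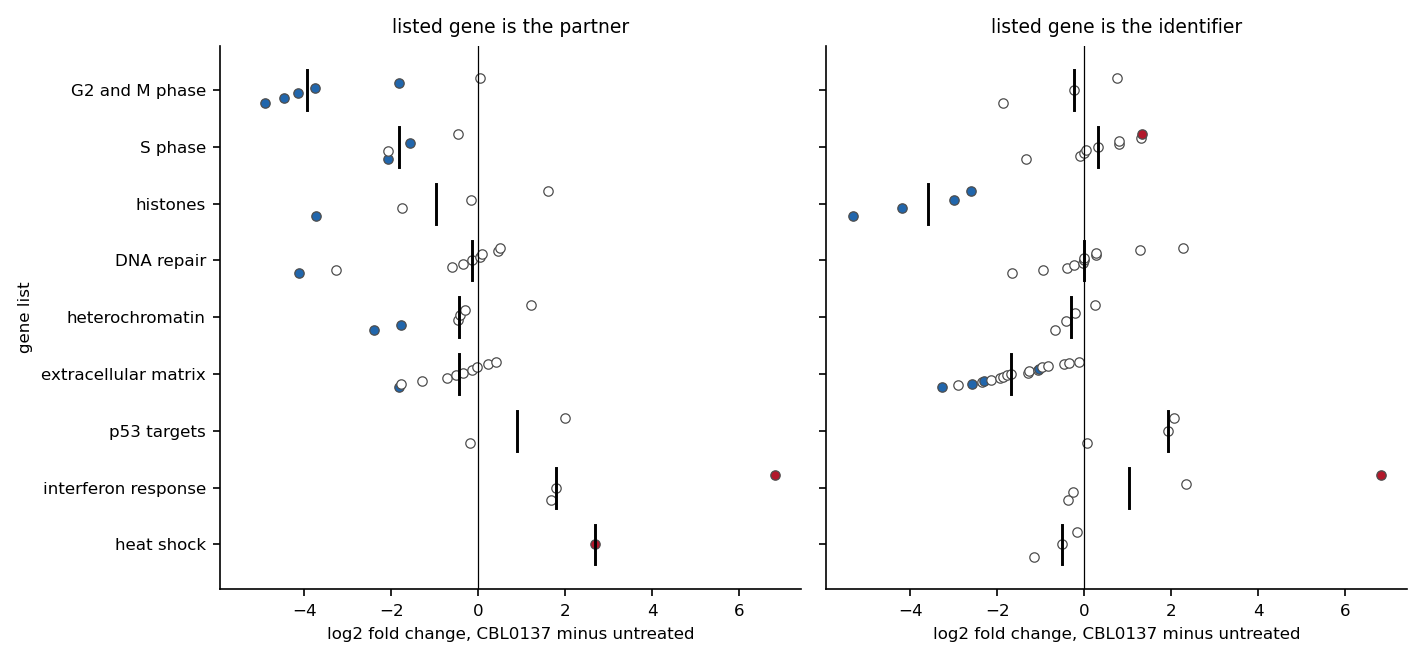
Log2 fold changes of the tested identifiers of 9 gene lists, with the listed gene as the partner on the other strand (left) or as the identifier itself (right). Filled points passed an adjusted p of 0.05 (blue lower, red higher), open points did not, and bars are medians; the G2 and M phase list lies at a median of −3.95 as partners and −0.23 as identifiers.

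The remaining lists held no call on either basis. As partners, 1 NF-kappaB target (Psd/Nfkb2, −0.02), 3 immediate early genes (median 0.89), 4 genes of glycolysis and hypoxia (0.08), 4 histone chaperones and remodellers (0.13), 6 genes of ribosome biogenesis (0.11) and 3 snoRNA hosts (−0.42) were tested. Under their own identifiers the 3 chaperones and remodellers tested were lowest, with Npm1 (21, 37, 0 and 13 counts) at −2.37, Anp32b at −2.16 and Chd3 at −2.001 (adjusted p = 0.0804, 0.0839 and 0.0709). All 3 had enough counts for a test only through the untreated libraries, which favours low values. The stress response list held the call opposite Hsp90b1 and the splicing list those of Mettl23/Srsf2 and Nelfa, while all other members tested were not called.

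The way an identifier lay on its partner was classed by which ends overlapped. The 3′ ends overlapped for 33 of the 74 higher (44.6%) and 34 of the 75 lower (45.3%) identifiers, against 700 of 1757 tested (39.8%), and the 5′ ends for 6 (8.11%), 7 (9.33%) and 205 (11.7%). In all, 114 of the 149 called identifiers had a partner, 76.5% (95% exact binomial interval 68.9% to 83.1%), an interval that holds the 70.1% over all tested. In 208 pairs both genes were tested under their own identifiers, and the readings had the same sign in 114 and opposite signs in 94. In 6 pairs both were called. Yipf2 (−1.03) and Carm1 (1.57) moved apart, while Rap2b (2.30) with B430305J03Rik (1.32), Acat3 (−0.91) with Tcp1 (−2.13) and 3 pairs of Gm26870 moved together. The adjusted p values of the first 3 of these pairs lay between 0.023 and 0.0491.

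MEF of the p53-/- genotype had 1 library per treatment. The difference between genotypes in the effect of CBL0137 was tested over the 6 MEF libraries for 2995 identifiers, where only the wild-type groups could give the spread, and 3 (0.1%) passed an adjusted p of 0.05. These were Kctd18/Sgo2a, Exosc9/Ccna2 and Lcorl/Ncapg. Kctd18 had 2801 CPM in untreated and 3093 CPM in treated p53-/- MEF, Exosc9 had 1542 and 1068 CPM, and Lcorl had 919 and 838 CPM. In wild-type MEF the treated means of the same identifiers were 64.3, 26.1 and 36.2 CPM. The interaction terms, p53-/- minus wild-type, were 4.72 (SE 0.46, adjusted p = 0.00731), 4.41 (SE 0.50, adjusted p = 0.0126) and 3.65 (SE 0.48, adjusted p = 0.0305) on the log2 scale.

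Leaving out CBL0137 library 1 raised the number of called terms from 3 to 136, these 3 included. Without untreated library 1, untreated library 2 or CBL0137 library 2 none passed, with 176, 167 and 352 identifiers at an unadjusted p below 0.05, and the terms for Kctd18 were then 4.88, 4.60 and 5.34. DESeq2 called only Kctd18 (adjusted p = 0.00582), with 53 identifiers at an unadjusted p below 0.05.

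For the other identifiers the difference between genotypes was not called, and the values stand side by side. Cdc23/Kif20a had 2549 CPM in untreated and 1325 CPM in treated p53-/- MEF, and Pdzd11/Kif4 had 252 and 138 CPM. Paqr4/Pkmyt1, at 0 in treated wild-type cells, had 24 and 78 counts (151 and 156 CPM), and Zfp276/Fanca had 176 and 206 CPM. Gm10143/Fen1 had 2171 and 2777 CPM and Ubxn6/Chaf1a had 824 and 1140 CPM, so that the treated library was the higher one there. By contrast Gm20628/Hist2h3b had 13606 CPM in untreated and 1635 CPM in treated p53-/- MEF, and Hist1h1e had 327 and 14.0 CPM. Both were lower after treatment, as in wild-type cells, and so was Hist1h1c (252 and 42.0 CPM). Hist1h2bl (271 and 142 CPM) and Hist2h3c2 (151 and 44.0 CPM) fell less in p53-/- MEF. In wild-type MEF their means went from 252 to 14.1 and from 166 to 2.0 CPM. Tap1 had no counts in either p53-/- library.

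**Figure D5:**
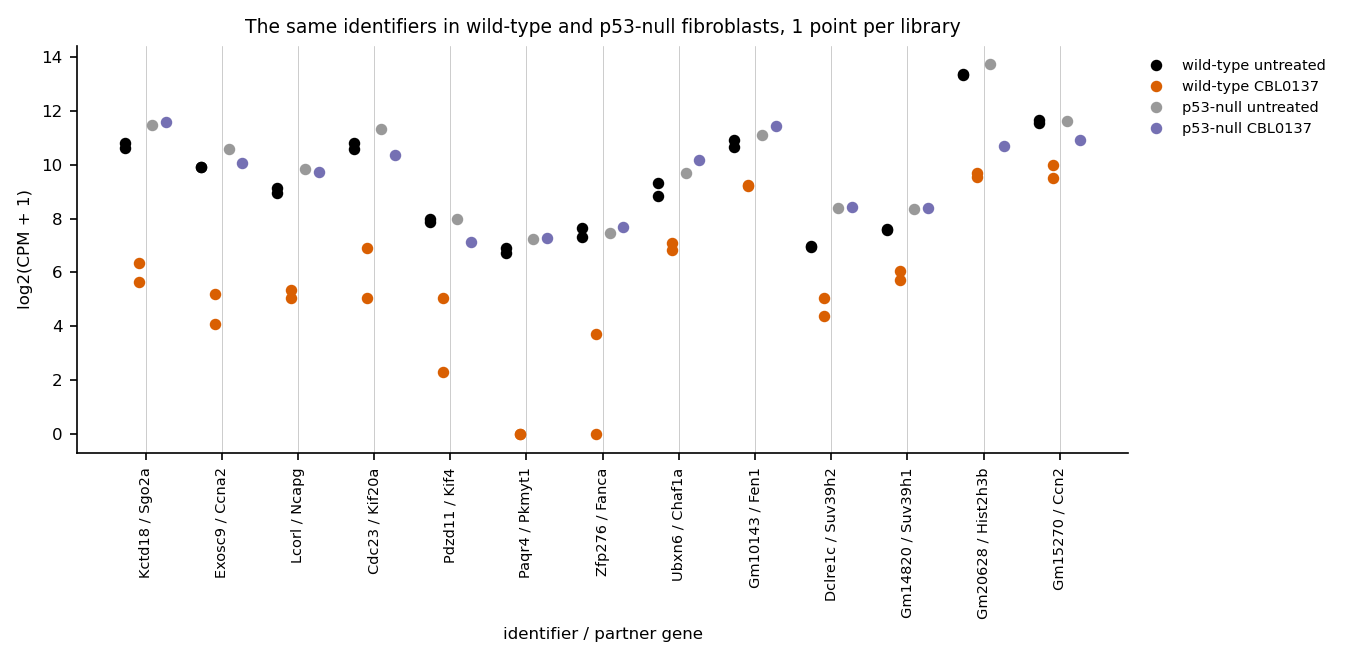
Level of 13 identifiers in the 6 MEF libraries as log2(CPM + 1), 1 point per library, where 0 stands for no counts; black and orange are untreated and treated wild-type MEF (2 libraries each), grey and purple untreated and treated p53-/- MEF (1 library each). The orange points of Kctd18, Exosc9 and Lcorl lie far below the other libraries, whereas for Gm20628 the treated library of both genotypes is low. CPM of the 2 genotypes were scaled in separate fits.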

How the data were processed

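Total RNA from MEF was made into libraries with a stranded, ribosomal RNA-depleted kit and sequenced on an Illumina instrument. Per the labels the authors aligned reads to GRCm38 (mm10) with TopHat2 2.0.9 and counted them with HTSeq; the deposited counts are whole reads per gene identifier, not normalized, and the annotation release is not given in the sources used here. Summary lines of HTSeq, which hold reads on no gene, were left out, and 0.803% to 1.16% of the reads of each file remained.

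The 4 wild-type MEF libraries were tested in edgeR 4.0.16 (R 4.3.3) with TMM factors of 0.954 to 1.038, filterByExpr (minimum count 10, minimum total 15), the quasi-likelihood test and Benjamini-Hochberg adjustment at 0.05. The filter could be passed through the untreated or the treated libraries alone, which favours falls or rises among such identifiers. The genotype term used the 6 MEF libraries. Replicates differed beyond sampling noise (chi-square per degree of freedom 4.26 and 7.08), so none was taken as deposited more than once. The median count of a tested identifier was 10 to 38, and the common biological coefficient of variation 0.256. 36429 identifiers (95.13%) were in GENCODE M21. Intervals and floors (3 counts over a group) cover counting error only. Lists were read under their own identifiers and as partners, with no set test. The code was tested on simulated data.

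Named were the 12 largest rises and falls with a partner, past the threshold and with groups apart, the 4 and 4 largest without a partner, up to 4 called per list, the p53 and FACT loci, and called identifiers that share a partner; others are said to be chosen after their values were seen. The alternatives were DESeq2 1.42.0, other scalings and filters, glmTreat at 1.5-fold, fits over 6 or 10 libraries, other overlap rules each library left out and, added after seeing the data, a block by the numbers in the file names. The rest of the cholesterol list is not reported here. Members and lists were chosen with earlier results of these data known.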

Additional observations from a re-analysis of the deposited data

Results flagged for a closer look

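The effect of CBL0137 on 3 identifiers differed between wild-type and p53-/- MEF by the test of the genotype by treatment term (edgeR, 6 libraries, p53-/- minus wild-type on the log2 scale). Kctd18, opposite Sgo2a, had a term of 4.72, with 186, 292, 3 and 20 counts in the wild-type libraries (untreated, then treated) against 445 and 1546 in p53-/- cells. Exosc9, opposite Ccna2, had a term of 4.41, with 114, 158, 1 and 9 against 245 and 534 counts. Lcorl, opposite Ncapg, had a term of 3.65, with 58, 92, 2 and 10 against 146 and 419 counts. The p53-/- cells had 1 library per treatment, so their own spread is unknown, and the treated p53-/- library was the deepest, with 538717 counts on identifiers. Without untreated library 1 the adjusted p of all 3 was 0.477. What sets the genotypes apart at these loci was not tested.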

How the results depend on the processing

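The count of higher identifiers, 74, became 21 with DESeq2, 125 with all reads as library size, 112 without the filter on low counts and 29 with glmTreat at 1.5-fold. The count of lower identifiers, 75, became 29 with DESeq2 and 35 with glmTreat. Leaving out each library in turn, which changes how many are tested, gave 0% to 5.02% higher identifiers against 4.21% and 0% to 5.87% lower against 4.27%. The cause of these changes and of those that follow was not tested. The 3 identifiers with a genotype difference became 1 with DESeq2, 5 with RLE scaling and 19 without the filter, and 0 to 136 when a library was left out. Scaling by upper quartile, a minimum count of 30 and fits over 6 or 10 libraries kept both counts within 1.5-fold of the values reported, and 149, 112, 131 and 98 of the 149 calls were kept. The share of called identifiers with a partner was 73.8% with at least 100 shared bases, 78.5% with whole gene bodies and 72% among DESeq2 calls. The median of the stress response list as partners, −0.01, turned to 0.10 without scaling factors and 0.20 with all reads as library size, and that of the DNA repair list to 0.14 with all reads. Of the 54 named and tested identifiers none changed direction under an alternative that gave it a value. DESeq2 gave a value for 50, a minimum count of 30 for 32 and the fits with a library left out for 47 to 54. Those last fits could hardly reverse a direction, as the treated and untreated libraries of each identifier lay apart in CPM. When a library is left out the lone sample of that group is assumed to vary like the pair. The labels give no replicate numbers, but the deposited file names number the libraries of each group 1 and 2, and no source says that a number marks a pair. A replicate block by these numbers, chosen after seeing the data, gave 40 higher and 34 lower identifiers and 38 with a genotype difference. The deviations of libraries with the same number correlated at −0.117 over the 1757 identifiers, and a block with crossed numbers gave 128 higher and 129 lower. Low counts limit most loci: the median tested count was 10 in CBL0137 library 1.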
